A study of Mus musculus with 9 samples.

Results

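The vehicle hippocampus of the study comprises 3 of its 9 arrays, and their log2 signals are described here across 22206 transcript clusters, each a probe group that reads 1 gene or locus. Per the labels, the samples came from male ICR mice, an outbred stock, aged 8 weeks. They were housed singly and breathed 1% Tween 80, a detergent used as the carrier, through an aroma diffuser for 7 days, with no linalyl acetate (LA). The other 6 arrays came from mice given LA at 1% or 10% and were not used here. The members were the 3 samples whose titles and source names give the vehicle. All 3 mice had also been allowed 7 days of acclimation. They were hung by the tail for a test of immobility (TST), and the labels give 30 minutes of inhalation before the test. These arrays are therefore a baseline of handled and tested mice rather than of naive ones. The labels do not say whether an array holds RNA of 1 mouse or whether 1 or both hippocampi were taken.

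Some of the labels contradict each other. The description field of all 3 vehicle samples tells of oral saline for 10 days. It goes on to an injection at 0.85 mg/kg, of saline for arrays 1 and 2 and of LPS, a bacterial endotoxin, for array 3. Titles, source names and protocols give no oral dose and no injection. Genes known to respond to endotoxin stood low on every array. Of 41 such clusters, 32 lay at or below a bound set by receptors of smell and taste, explained below, where 41.6% of all clusters lie. Their mean deviation from the 3-array mean was -0.00 in array 1, 0.07 in array 2 and -0.07 in array 3. The same deviations were -0.06, 0.00 and 0.06 in the series matrix, a second deposited table, so array 3 was the lowest in one table and the highest in the other. Il6, an inflammatory cytokine, read 3.28, 2.84 and 2.88 in arrays 1, 2 and 3. Lcn2, an acute phase protein induced in brain by endotoxin, read 4.27, 3.74 and 4.21. Both lay below the bound on every array. Lbp, the lipopolysaccharide binding protein, read 6.43, 8.16 and 5.37, with 9.90 for array 3 in the series matrix. Array 3 was thus the lowest for Lbp in one table and the highest in the other. Whether any array came from an injected mouse was not tested.

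The hippocampus is a folded sheet of cortex that encodes episodic and spatial memory. Its principal cells are the pyramidal neurons of fields CA1 to CA3 and the granule cells of the dentate gyrus, which pass excitation by glutamate from field to field, while interneurons that release GABA restrain them. It lies against the lateral ventricle, whose choroid plexus is a secretory epithelium that makes cerebrospinal fluid, and below the white matter, which is rich in myelin. Pyramidal and granule cells carry dense receptors for corticosteroids, and their immediate early genes are switched on within minutes of neuronal activity or stress.

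The DNA before the start sites is shown for a pair of gene groups, because the first holds neighbouring genes with very different levels and the second holds genes that differed between arrays. The promoter windows are RefSeq's on GRCm38.p6, 250 bases before to 50 after the start. No genome build for the array files is named in what was read here. The metallothioneins are small cysteine-rich proteins that bind zinc and copper and lie side by side on chromosome 8. In their windows, capitals mark TGCACNC or TGCGCNC on either strand, the core of the metal response element. At least 1 such match is found in 25.7% of all 32851 windows, and 2 or more in 7.11%. The Mt1 window (chr8:94178839-94179138, plus strand) holds 3 matches, the Mt2 window (chr8:94172368-94172667, plus) 4, the Mt3 window (chr8:94152357-94152656, plus) 1 and the Mt4 window (chr8:94136954-94137253, plus) 1.
Mt1: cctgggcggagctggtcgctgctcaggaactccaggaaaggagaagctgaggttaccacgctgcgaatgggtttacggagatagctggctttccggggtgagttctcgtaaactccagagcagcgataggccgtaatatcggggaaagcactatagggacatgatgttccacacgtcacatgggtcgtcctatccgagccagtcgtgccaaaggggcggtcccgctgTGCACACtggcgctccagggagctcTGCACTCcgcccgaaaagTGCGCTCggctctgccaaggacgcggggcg
Mt2: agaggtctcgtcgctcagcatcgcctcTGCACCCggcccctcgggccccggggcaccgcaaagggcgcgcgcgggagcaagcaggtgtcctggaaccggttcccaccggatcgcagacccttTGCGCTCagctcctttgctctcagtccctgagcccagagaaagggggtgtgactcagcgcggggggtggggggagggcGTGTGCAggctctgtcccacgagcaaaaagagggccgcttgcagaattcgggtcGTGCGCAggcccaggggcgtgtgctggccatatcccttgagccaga
Mt3: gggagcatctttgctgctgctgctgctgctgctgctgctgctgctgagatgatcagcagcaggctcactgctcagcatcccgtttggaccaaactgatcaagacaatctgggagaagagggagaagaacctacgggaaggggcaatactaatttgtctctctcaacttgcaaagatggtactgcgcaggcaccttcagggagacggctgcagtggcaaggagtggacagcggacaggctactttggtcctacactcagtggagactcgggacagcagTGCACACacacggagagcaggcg
Mt4: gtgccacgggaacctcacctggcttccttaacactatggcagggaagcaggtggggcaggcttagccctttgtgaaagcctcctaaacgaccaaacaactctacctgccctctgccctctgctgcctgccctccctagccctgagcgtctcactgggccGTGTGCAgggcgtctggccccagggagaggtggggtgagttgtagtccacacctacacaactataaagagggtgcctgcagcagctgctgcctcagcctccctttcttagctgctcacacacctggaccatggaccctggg
Mt1 read 16.60, 15.73 and 15.59 in arrays 1, 2 and 3, and Mt2 read 16.53, 15.38 and 15.19. Both are made in many cell types, astrocytes among them, and both were highest in array 1, with ranges of 1.01 and 1.34. Mt3, the form known from brain, read 12.65, 12.65 and 12.83, with 11.40 for array 3 in the series matrix. Mt4, known from stratified epithelium such as tongue and skin, read 5.45, 6.01 and 6.38. The genes with 3 and 4 matches had the high signals and Mt4 the low one, and Mt3 with 1 match was also high. A match of letters is no measurement of binding.

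Of the immediate early genes, 28 had a promoter window, and 2 of the 28, Dusp1 and Btg2, held the palindrome TGACGTCA, the full cAMP response element, which reads the same on both strands and occurs in 1.79% of all windows. It is in capitals below, for Dusp1 at chr17:26508423-26508722 on the minus strand and for Btg2 at chr1:134079106-134079405 on the minus strand.
Dusp1: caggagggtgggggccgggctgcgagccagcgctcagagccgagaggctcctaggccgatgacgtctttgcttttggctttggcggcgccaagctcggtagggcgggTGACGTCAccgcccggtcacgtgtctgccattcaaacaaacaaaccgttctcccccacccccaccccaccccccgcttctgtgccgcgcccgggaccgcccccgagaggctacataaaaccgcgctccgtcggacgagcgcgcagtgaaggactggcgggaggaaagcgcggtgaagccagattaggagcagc
Btg2: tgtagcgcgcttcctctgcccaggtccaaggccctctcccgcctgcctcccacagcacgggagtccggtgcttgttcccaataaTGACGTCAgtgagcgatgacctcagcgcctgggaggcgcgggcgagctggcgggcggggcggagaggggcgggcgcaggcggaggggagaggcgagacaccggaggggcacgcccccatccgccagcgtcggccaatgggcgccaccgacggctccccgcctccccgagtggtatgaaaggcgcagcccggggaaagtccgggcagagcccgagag
Dusp1, a phosphatase that switches off MAP kinases, read 12.25, 9.70 and 10.41 in arrays 1, 2 and 3. Btg2, an antiproliferative gene induced by stress and activity, read 8.38, 7.49 and 7.36. Both were highest in array 1 in this table and also in the series matrix. They are 2 of the 9 immediate early genes with a window whose range passed 1 log2 unit, and no relation between the motif and the range was tested.

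The signals are on a log2 scale after the authors' normalization, so 1 unit is a factor of 2. The median signal was 6.84 in array 1, 6.88 in array 2 and 6.85 in array 3. The lowest value on an array was 2.46 and the highest 19.92. Across clusters, which are not independent replicates, Pearson's r was 0.988 between arrays 1 and 2, 0.985 between arrays 1 and 3 and 0.990 between arrays 2 and 3. In the series matrix, the positive controls were separated from the negative controls with an area under the curve of 0.820, 0.832 and 0.817. The 23 background probe sets of graded GC content had signals of 2.78 to 7.81, so a dim signal varied with base composition. Probes also differ in how brightly they read a given amount of RNA, and a level is therefore read by its percentile among all clusters and is not an amount of transcript.

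The series matrix holds the same clusters. Its columns for arrays 1 and 2 followed the signal table, at r = 0.999 for each and with no cluster more than 1 log2 unit away. Its column for array 3 did not, with r = 0.981, 1778 clusters more than 1 unit apart and a largest difference of 7.90. Neither table says which column of array 3 is the right one. Values below are those of the signal table, and array 3 of the series matrix is set beside them where it changes the order or range of a gene the text turns on.

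Since no detection call came with the arrays used here, receptors of smell and taste served as a level for genes with little or no transcript in brain. Their 1445 clusters, 1096 olfactory, 311 vomeronasal and 38 taste receptors, had means of which the 95th percentile was 6.13, called the receptor bound below. Of all 22206 clusters, 9246 had a mean at or below it, 41.6%. With keratin-associated, defensin and testis genes as the reference instead, 14266 clusters lay at or below their bound, so the count depends on which genes stand for silent ones. At the other end, the top decile opened at 11.89 and held 2222 clusters, 10.0% of all by its definition.

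The brightest clusters read the mitochondrial genome, the machinery of calcium signalling in neurons and general housekeeping. ND1, a subunit of respiratory complex I encoded in the mitochondrion, read 19.92, 19.85 and 19.86, and COX1, the catalytic subunit of cytochrome c oxidase, read 19.91, 19.85 and 19.86. COX2 read 19.59 on all 3 arrays. The values of ND1 and COX1 in arrays 2 and 3 were the highest on those arrays, and further mitochondrial clusters with several symbols shared them. The order of the very brightest clusters is therefore not resolved, and whether their signal had reached a ceiling was not tested. Camk2a, the kinase subunit of calcium signalling at the postsynaptic density, read 19.75, 19.78 and 19.69, higher than any other named nuclear gene. Calm2 and Calm3, genes of the calcium sensor calmodulin, stood among the 20 highest named clusters, with means of 18.82 ± 0.23 (SD, n = 3) and 18.95 ± 0.15. Ppp3ca, the catalytic subunit of calcineurin, the calmodulin-dependent phosphatase, read 19.01, 18.53 and 18.53.

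The 20 also held Fth1, the ferritin heavy chain (mean 19.68), ND3 (19.66), the constitutive chaperone Hspa8 (19.58), the lipid carrier Apoe of astrocytes (18.82), the vesicle protein Syp (18.79), and Rmrp, the RNA of a ribonuclease (18.47). Others of the 20 were the neuronal membrane protein Gpm6a (18.43), the calcium sensor of release Syt1 (18.36), the actin-binding Tmsb4x (18.29), Actb (18.28), the sodium pump subunit Atp1b1 (18.28) and the adaptor Ywhae (18.16). No range among the 20 passed 1 unit, and the widest was that of Rmrp at 0.76. Of the 100 brightest clusters, 9 read the mitochondrial genome, 17 were predicted genes and 12 carried several symbols, and 3 of the 100 had a range over 1. One of the mitochondrial clusters was ND6, a complex I subunit encoded on the opposite strand to most mitochondrial genes, which read 16.46, 17.76 and 17.49 and was lowest in array 1 in both tables.

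Whole families of general cell machinery stood in the top decile. Of 70 clusters of cytosolic ribosomal proteins, 53 did, with a median percentile of 96.2. Rplp1, of the ribosomal stalk, was the highest at a mean of 17.69, Rps23 followed at 17.35, and the muscle paralog Rpl3l was the lowest at 4.15. Mitochondrial ribosomal proteins were set lower, with 3 of 75 in the top decile and a median percentile of 72.1. Of the nuclear-encoded subunits of cytochrome c oxidase, 10 of 17 lay in the top decile (median percentile 96.4), led by Cox7c at a mean of 17.90, while the tissue-restricted Cox4i2, Cox6b2 and Cox8b had means of 6.04, 5.47 and 4.45. Of the subunits of ATP synthase 13 of 18 stood there, of complex I 22 of 38, of the vacuolar ATPase, which acidifies synaptic vesicles, 13 of 24, and of the proteasome 16 of 38. Within the vacuolar ATPase, Atp6v0c had a mean of 16.77 and the kidney form Atp6v1b1 one of 4.38, and within the proteasome Psmc3 had 14.12 and the testis form Psma8 3.66. The respiratory, vacuolar ATPase and proteasome families thus spanned general members near the top and paralogs restricted to other tissues near the receptor level, whereas no ATP synthase cluster lay at or below the bound.

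Glycolysis showed the same spread of isoforms. Gapdh read 18.36, 18.00 and 17.79, and Aldoa and Aldoc, the aldolases of general and of astrocyte use, had means of 17.61 and 17.13. In contrast the muscle-rich hexokinase Hk2 (5.15), the liver and red cell pyruvate kinase Pklr (4.77), and the sperm forms Pgk2 (5.29), Ldhc (4.65) and Gapdhs (3.61) lay below the bound. Of the 25 glycolytic clusters, 14 stood in the top decile and 5 at or below the bound, against 10.0% and 41.6% of all clusters. Among the tubulins and microtubule proteins, 17 of 23 stood in the top decile. Map1b led at 17.54, with the platelet tubulin Tubb1 at 6.15 and the testis tubulin Tuba3a at 5.12.

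**Figure D1:**
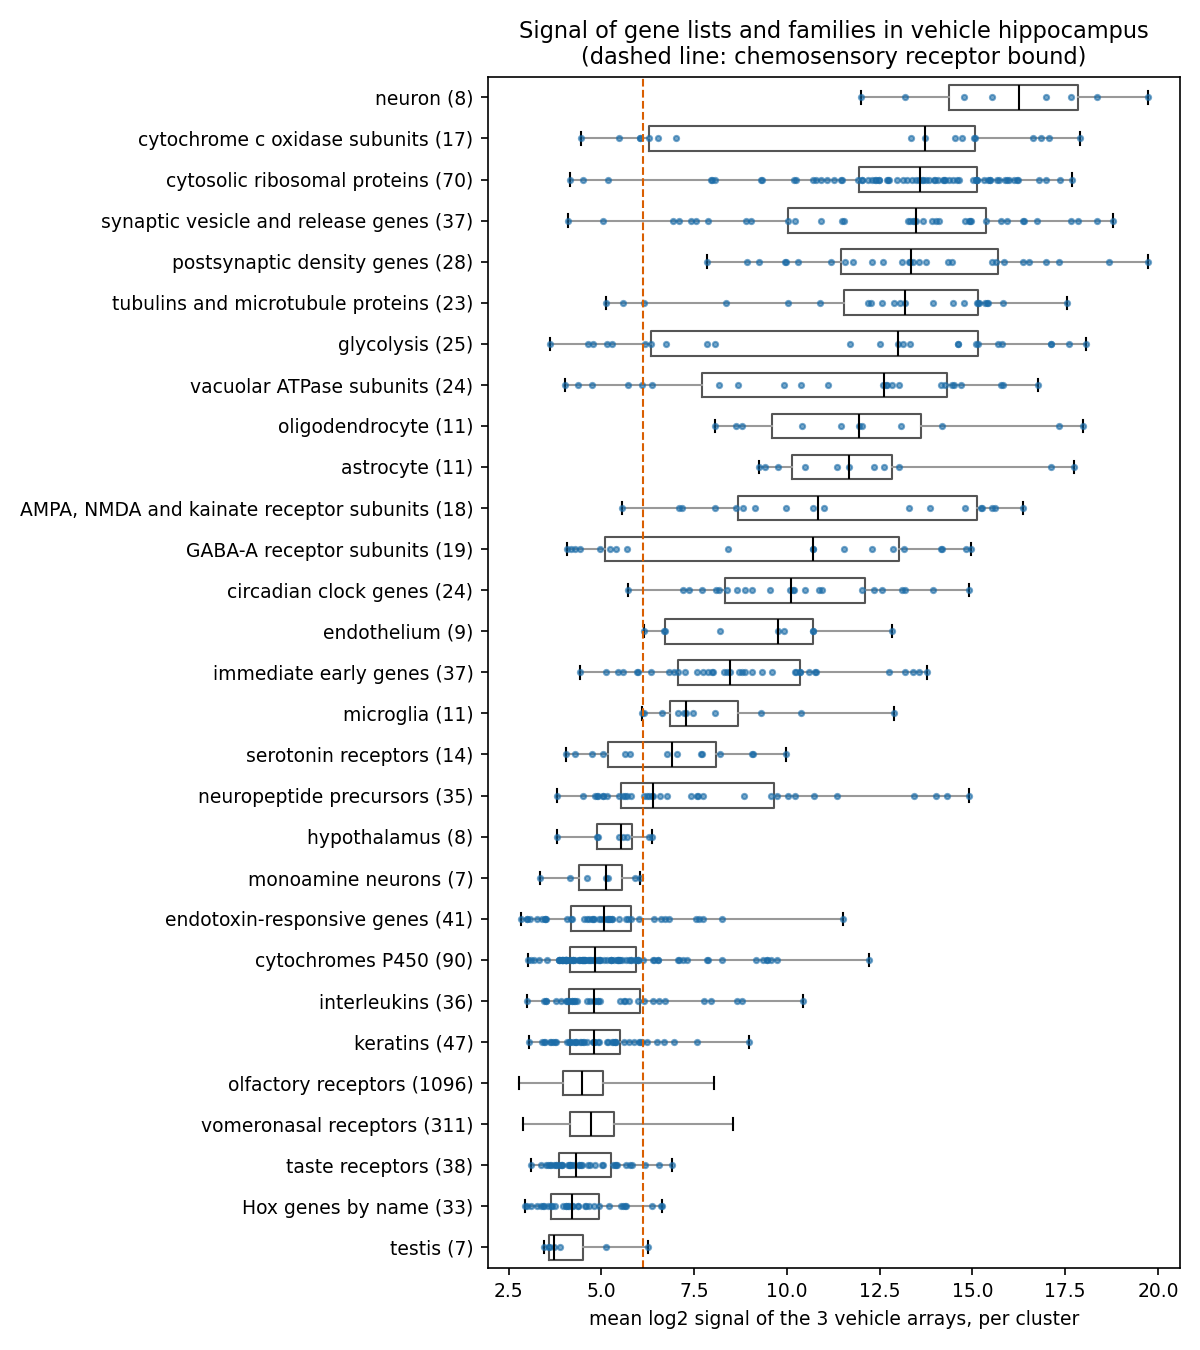
Mean log2 signal over the 3 vehicle arrays of each cluster (x axis, log2) for 29 gene lists and families, with the number of clusters in brackets. Boxes span the quartiles with the median as a line, whiskers the lowest and highest member, points single clusters where a list has at most 100, and the dashed line is the receptor bound of 6.13. Neuronal, respiratory, ribosomal and synaptic lists sit mostly to the right, with tails of tissue-restricted paralogs, and Hox, testis and chemosensory genes to the left.

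The synapse was among the brightest gene groups. Of 37 vesicle and release genes 23 stood in the top decile, with a median percentile of 95.9, and of 28 postsynaptic density genes 19 did, with a median of 95.6. Slc17a7, the vesicular glutamate transporter of cortical and hippocampal neurons, read 17.91, 17.75 and 17.89. The thalamic form Slc17a6 read 8.30, 7.66 and 7.70, and Slc17a8, of sparse neuron types, read 4.87, 5.29 and 4.94. The vesicle clamp proteins split likewise, with Cplx1 at 14.96 and Cplx2 at 14.02 in the mean and the ribbon synapse forms Cplx3 and Cplx4 at 6.93 and 4.10. Cnksr2, a postsynaptic scaffold, had a mean of 17.34, and the lowest postsynaptic member was Ppp1r1b, the dopamine-regulated phosphatase inhibitor of striatum, at 7.85.

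Of 18 subunits of the AMPA, NMDA, kainate and delta receptors, 8 stood in the top decile and 1 at or below the bound. Over all clusters the shares were 10.0% and 41.6%. Gria2, the AMPA subunit that limits calcium entry, read 16.32, 16.29 and 16.49. Gria1 read 16.11, 15.50 and 15.20, and the obligatory NMDA subunit Grin1 read 15.47, 15.49 and 15.61. Grin2a and Grin2b, the main adult NMDA partners, had means of 15.26 and 15.24, while Grin2d had 7.17 and Grin3b 5.54, the lowest of the list. Among the metabotropic receptors Grm5 was the highest at 12.89 and Grm6, the receptor of retinal bipolar cells, the lowest at 6.68.

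The GABA-A receptor list held clusters on both sides of the bound, and 7 of 19 stood in the top decile, against 10.0% of all. Gabrb2, a beta subunit, was among the highest at a mean of 14.18, and Gabra5, the alpha subunit known from hippocampal pyramidal cells, read 15.11, 13.89 and 13.45 and differed by 1.66 between arrays, with 14.85 for array 3 in the series matrix. At or below the bound were 8 of 19, a share near the 41.6% of all clusters. Among them were the cerebellar Gabra6 (4.17), the reproductive tract subunit Gabrp (4.07) and the 3 rho subunits of retina, Gabrr1, Gabrr2 and Gabrr3. Gabrd, the extrasynaptic subunit of granule cells, read 5.62, 5.59 and 5.88, below the bound although dentate gyrus is known to use it. A low cluster on this array therefore does not show that the gene is silent.

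Receptors for the modulatory transmitters had lower median percentiles, 50.4 for serotonin, 47.4 for dopamine and noradrenaline and 38.5 for acetylcholine, against 84.0 for the glutamate-gated channels. None of 14 serotonin receptor clusters stood in the top decile, and 6 lay at or below the bound, a share near the 41.6% of all clusters. Htr2c led with 9.80, 10.83 and 9.32, followed by Htr1a, the inhibitory receptor of pyramidal cells, with 10.18, 8.95 and 8.15, and Htr2a with 8.75, 9.25 and 9.14, and Htr3b was the lowest at a mean of 4.06. The dopamine and adrenergic receptors peaked at Adra2a (mean 8.30), Drd5 (8.26) and Adra1d (7.70), with 5 of 14 at or below the bound, again near the share of all clusters, and Adrb3, of fat, the lowest at 4.67. Of 21 acetylcholine receptor clusters 12 lay at or below the bound, and Chrm1, the main muscarinic receptor of forebrain, stood alone in the top decile with 12.82, 12.13 and 12.07. The muscle nicotinic subunits Chrna1 (4.00), Chrnd (3.71) and Chrng (3.36) were at the floor. Markers of monoamine neurons, whose cell bodies sit in the brainstem and midbrain, were all 7 at or below the bound, from Th, which makes the precursor of dopamine, at a mean of 6.04 to the transcription factor Fev at 3.34.

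Of 35 neuropeptide precursors and granins, 4 stood in the top decile. Sst, of dendrite-targeting interneurons, read 15.21, 14.91 and 14.62, and Cck, of basket cells and of some pyramidal cells, read 14.92, 13.80 and 14.24. Chgb and Scg2, proteins of dense-core vesicles, had means of 14.03 and 13.44. Npy had a mean of 10.22. The hypothalamic precursors lay at or below the bound in 6 of 8 cases, against 41.6% of all clusters. Oxt at 6.35 and Pmch at 6.27 lay just above the bound, and Gal at 3.80 was the lowest. Of the neurotrophin list, the receptor Ntrk2 (15.00) and the sorting receptor Sort1 (15.19) stood near the top, Bdnf read 10.31, 10.08 and 10.67, and the receptor Gfra3 of peripheral sensory neurons was the lowest at 2.88.

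Markers of neurons and of the hippocampal fields mostly lay above the bound, while 41.6% of all clusters lay at or below it. All 8 general neuron markers were in the top decile, with a median percentile of 99.2 and Rbfox3, the nuclear antigen NeuN, the lowest at a mean of 12.00. All 13 markers of CA pyramidal cells lay above the bound, led by Neurod6 (14.23), Dkk3 (13.71) and Mpped1 (12.44) with Pou3f1 the lowest at 6.62. Of 11 markers of granule cells 10 did, led by Rfx3 (12.89), C1ql3 (12.68) and Calb1 (11.52), with Tdo2 at 6.03 below it. The median percentile was 86.8 for the CA list and 65.9 for the granule cell list. It was 63.8 for markers of field CA2, with 6 of 6 above the bound, and 58.4 for those of hilar mossy cells, with 3 of 4. Prox1, the factor that defines granule cells, read 10.82, 10.16 and 9.63, but 11.53 for array 3 in the series matrix, the highest there. Among 12 interneuron markers the lowest was Lhx6 at 5.21, after Sst, Cck and the cannabinoid receptor Cnr1 (12.33) at the top. Glial lists were bright too, with astrocyte markers at a median percentile of 88.9 (Slc1a2, the glial glutamate transporter, mean 17.73) and oligodendrocyte markers at 90.3. Microglial markers were lower, at 54.6, with Trem2 the lowest at a mean of 6.11.

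Markers of other organs were mostly at or below the bound, where 41.6% of all clusters lie. Of 6 liver markers 5 were at or below the bound, and so were 4 of 4 lung, 5 of 5 gut, 5 of 6 pituitary, 6 of 7 testis, 4 of 6 pancreas, 4 of 5 kidney and 5 of 7 muscle markers. The exceptions included the muscle creatine kinase Ckm, at 9.52, 9.07 and 9.11, and the podocyte gene Nphs1 (8.15). Of the neighbouring regions, the thalamic and habenular list had 2 of 10 and the striatal list 1 of 9 at or below the bound, and that of subiculum and deep cortex 2 of 11. Their median percentiles were 56.1, 59.5 and 56.4, near those of the microglial and hilar mossy cell markers. The levels of the granule cell, CA2 and mossy cell lists thus did not set hippocampus clearly apart from these regions. Pde10a (12.85) and Penk (11.35) of the striatal list are also known from hippocampal cells, and whether tissue of these regions was present was not tested. Y-linked genes of the male mice were read above the bound in all 4 cases, with Eif2s3y at 11.11, 12.19 and 12.54, and at 10.95 for array 3 in the series matrix. No cluster with 1 symbol read Xist.

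The globins made a sharp contrast within 1 family. The 4 clusters of adult alpha and beta globin carry paired symbols, since the gene copies are near-identical, and their means ran from 14.89 to 15.37. Each was highest in array 2 of the signal table, for example at 14.97, 16.00 and 15.05 for the cluster of Hbb-bt and Hbb-b2. For the 2 alpha globin clusters the series matrix put array 3 at 15.56, against 14.46 and 14.54 in the signal table. The embryonic genes Hbb-y, Hbb-bh1 and Hba-x had means of 3.77, 4.56 and 5.15. Adult globin RNA comes from red cells in unperfused vessels and in small amount from neurons, and Alas2, the heme enzyme of red cells, read 6.02, 6.77 and 6.50.

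Developmental regulators divided by position along the body axis. Of 33 Hox clusters, which pattern the hindbrain, spinal cord and trunk, 30 lay at or below the bound, with Hoxc9, Hoxb2 and Hoxa4 the highest at means of 6.63, 6.60 and 6.36 and Hoxc11 the lowest at 2.95. Of 20 clusters of forebrain transcription factors none did, and 8 stood in the top decile, led by Nfix (15.55), Nfib (14.57) and Neurod6, with Emx1 the lowest at 6.32. At or below the bound, where 41.6% of all clusters lie, were 14 of 19 Wnt ligands and 27 of 36 interleukins. So were 41 of 47 keratins and 72 of 90 cytochromes P450. The highest P450 was Cyp46a1, the cholesterol 24-hydroxylase of neurons, at 11.81, 12.10 and 12.70. The highest UDP glucuronosyltransferase was Ugt8a, which makes the galactolipid of myelin, with a mean of 10.72 against 3.01 for the liver gene Ugt2b37. Serpini1 (14.28), the serpin of neurons known as neuroserpin, led a family of which 48 of 61 clusters lay at or below the bound, and Ccl27a (14.50) led the chemokines.

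Clock genes and dividing cells gave a further view of the state of the tissue. Dbp, an output gene of the circadian clock, read 14.79, 15.01 and 14.90 and led the 24 clock clusters, followed by the kinase Csnk1d (13.94) and Clock (13.18), and 7 of the 24 stood in the top decile. Per2 read 7.40, 8.23 and 8.92 and Ciart 7.23, 8.44 and 8.61, both lowest in array 1 of the signal table, with 7.65 and 6.56 for array 3 in the series matrix. In the neurogenesis list Dcx, of migrating young neurons, had a mean of 9.62, while the proliferation marker Mki67 (5.06) and the intermediate progenitor factor Eomes (4.37) lay below the bound. Of the 17 clusters of that list 8 lay at or below the bound, a share near the 41.6% of all clusters. In cholesterol synthesis all 21 clusters lay above the bound, from Hmgcs1 (14.25) to Mvk (6.23), and no range among them passed 1 unit. Of all clusters, 41.6% lay at or below the bound and 9.98% had a range over 1.

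Over all clusters the median range of the 3 arrays was 0.48, and the median SD was 0.25. A range over 1 unit, a 2-fold difference between the highest and lowest array, was found in 2217 clusters, 9.98% of all. The count was 1819 clusters, 8.19%, in the series matrix. The share was 5.86% below the 20th percentile of mean signal and 12.2% in the top decile, so bright clusters did not vary less. Of the 2217, 1072 had a range over 1 in the series matrix also, which is 48.4% of the first list and 58.9% of the second. Since 3 arrays form 1 group, no test was made, and what separates mice here cannot be told apart from what separates dissections, RNA preparations or hybridizations.

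In the signal table array 1 stood apart most often. It lay more than 1 unit above both others in 249 clusters (1.12%) and below both in 184 (0.829%). For array 2 the counts were 99 (0.446%) and 22 (0.0991%), and for array 3 they were 124 (0.558%) and 123 (0.554%). Counted without a threshold, array 1 was the highest of the 3 in 33.0% of clusters and the lowest in 38.2%. Array 2 was highest in 30.5% and lowest in 29.0%, and array 3 highest in 34.9% and lowest in 31.0%. In the series matrix the shares were 31.0% and 32.2% for array 1, 39.1% and 35.7% for array 2, and 29.8% and 32.1% for array 3. Array 2 was thus most often at either end there. These shares are the background for the lists below.

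Choroid plexus genes were the most variable group described. Of 21 marker clusters 19 had a range over 1, against 9.98% of all clusters, and array 2 was the highest in 21 of 21, against 30.5% of all. Ttr, the carrier of thyroid hormone and retinol that choroid plexus secretes, read 10.42, 19.13 and 11.63, the widest range on the arrays at 8.71. Enpp2, the secreted enzyme autotaxin, read 13.31, 17.48 and 13.40. The epithelial potassium channel Kcnj13 read 7.34, 11.13 and 7.73. Array 2 stood far above arrays 1 and 3 in each. Clic6, a chloride channel protein, read 6.05, 10.51 and 7.83, Kl, the hormone coreceptor klotho, 8.12, 9.75 and 6.49, and Otx2, the homeobox factor that maintains it, 4.23, 7.12 and 4.02. Cldn2, a tight junction protein, was the lowest, at 4.63, 5.08 and 4.62. The mean deviation of the list was -0.91 in array 1, 1.63 in array 2 and -0.72 in array 3. With array 2 left out, 5 of the 21 had a range over 1.

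The series matrix gave another picture of array 3 for the same genes. There Ttr read 10.35, 19.11 and 19.53, Enpp2 13.31, 17.43 and 18.74, and Kcnj13 7.38, 11.13 and 13.55. Array 3 was the highest in 21 of 21 clusters in that table, against 29.8% of all, and the mean deviations were -2.17, 0.42 and 1.74. So array 2 stood above array 1 in both tables, while array 3 stood with array 1 in one and above both in the other. In bulk tissue, more cells of a type and more RNA per cell cannot be told apart, and how much choroid plexus each dissection held was not tested.

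**Figure D2:**
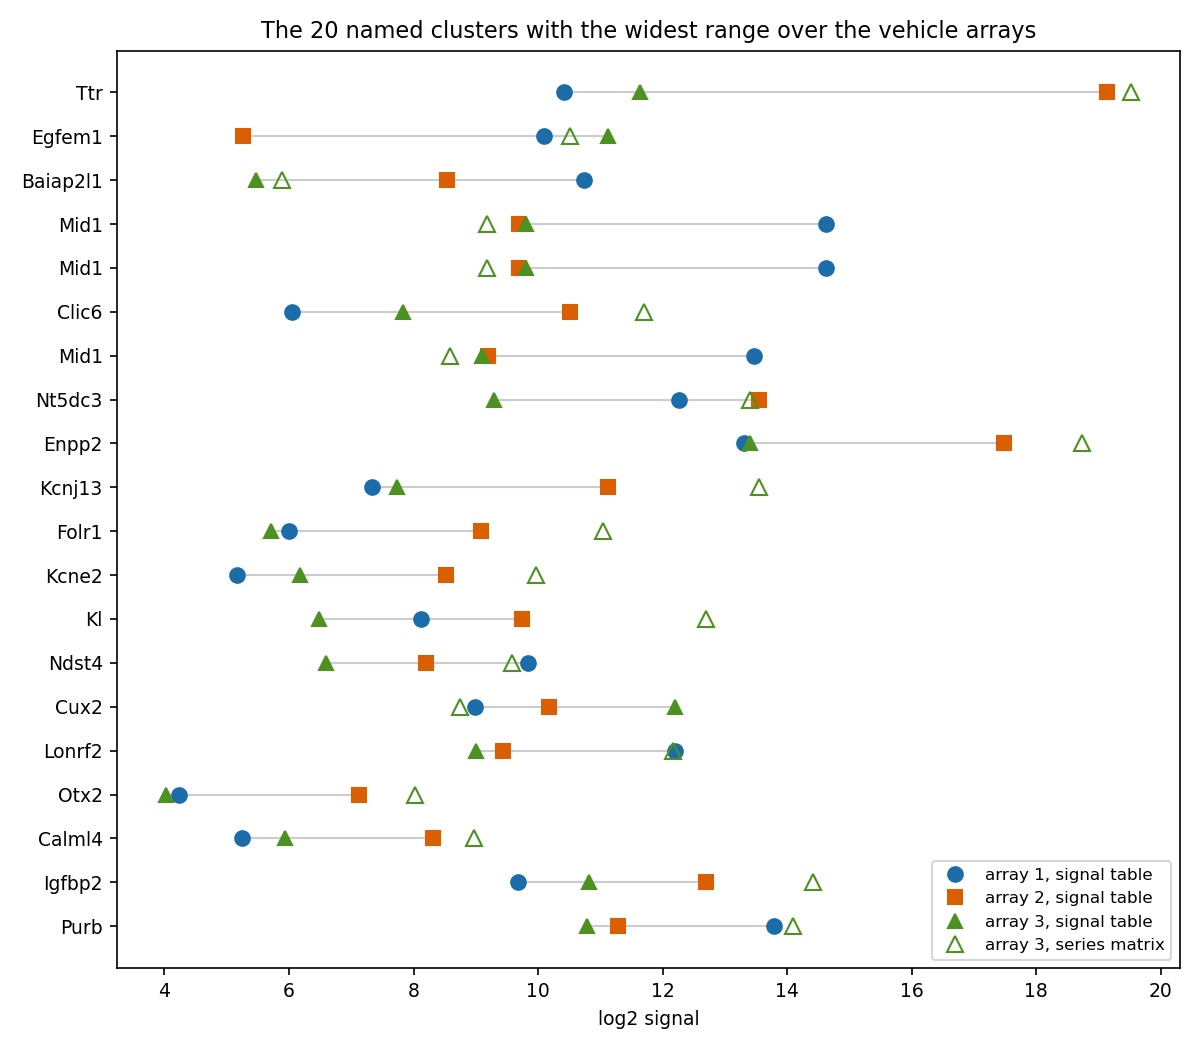
Log2 signal (x axis) of the 20 named clusters with the widest range over the vehicle arrays. Filled symbols are arrays 1, 2 and 3 of the signal table, grey lines join the lowest and highest of them, and the open triangle is array 3 in the series matrix. For the choroid plexus genes, such as Ttr, Enpp2 and Kcnj13, the filled triangle lies far from array 2 and the open one at or above it.

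Of the 20 named clusters with the widest range, 10 were choroid plexus markers. Genes outside the marker list followed the same pattern, highest in array 2 in the signal table and in array 3 in the series matrix. Igf2, a growth factor of both tissues, read 9.41, 12.32 and 9.44 in the signal table and 9.29, 12.34 and 14.27 in the series matrix. Trpm3, a cation channel, read 11.93, 14.07 and 11.78, and Htr2c, a receptor abundant in this epithelium, 9.80, 10.83 and 9.32. Array 3 of the series matrix read 15.41 for Trpm3 and 12.17 for Htr2c. Of 13 markers of meninges and fibroblasts, 5 had a range over 1, against 9.98% of all clusters. Their mean deviations were -0.24, 0.29 and -0.04, and -0.62, -0.08 and 0.70 in the series matrix. Dcn, a matrix proteoglycan, led them with 10.95, 10.87 and 9.76, and with a range of 0.11 in the series matrix, and Col3a1 was the lowest with 3.59, 3.96 and 4.54. The receptor Htr2c, the highest of the serotonin list, thus moved across arrays with choroid plexus genes.

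Myelin genes set array 3 apart in the signal table. Of 11 oligodendrocyte markers 7 had a range over 1, against 9.98% of all clusters. Array 3 was the lowest in 11 of 11, against 31.0% of all clusters. Mal, a lipid raft protein of myelin, read 14.84, 14.40 and 13.30, with 15.27 for array 3 in the series matrix. Mbp, at 18.06, 18.37 and 17.50, the highest of the list, had a range of 0.87, and Mag, at 8.04, 8.68 and 7.48, was the lowest. The mean deviations were 0.19, 0.44 and -0.64. In the series matrix array 3 was instead the highest in 10 of 11, against 29.8% of all. The deviations there were -0.31, -0.06 and 0.36, and 2 of 11 had a range over 1, against 8.19% of all. Between arrays 1 and 2 alone, none of the 11 differed by over 1 unit in either table. Olig1, a factor of the precursor lineage, read 8.96, 8.31 and 7.36, with 9.09 for array 3 and a range of 0.65 in the series matrix.

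**Figure D3:**
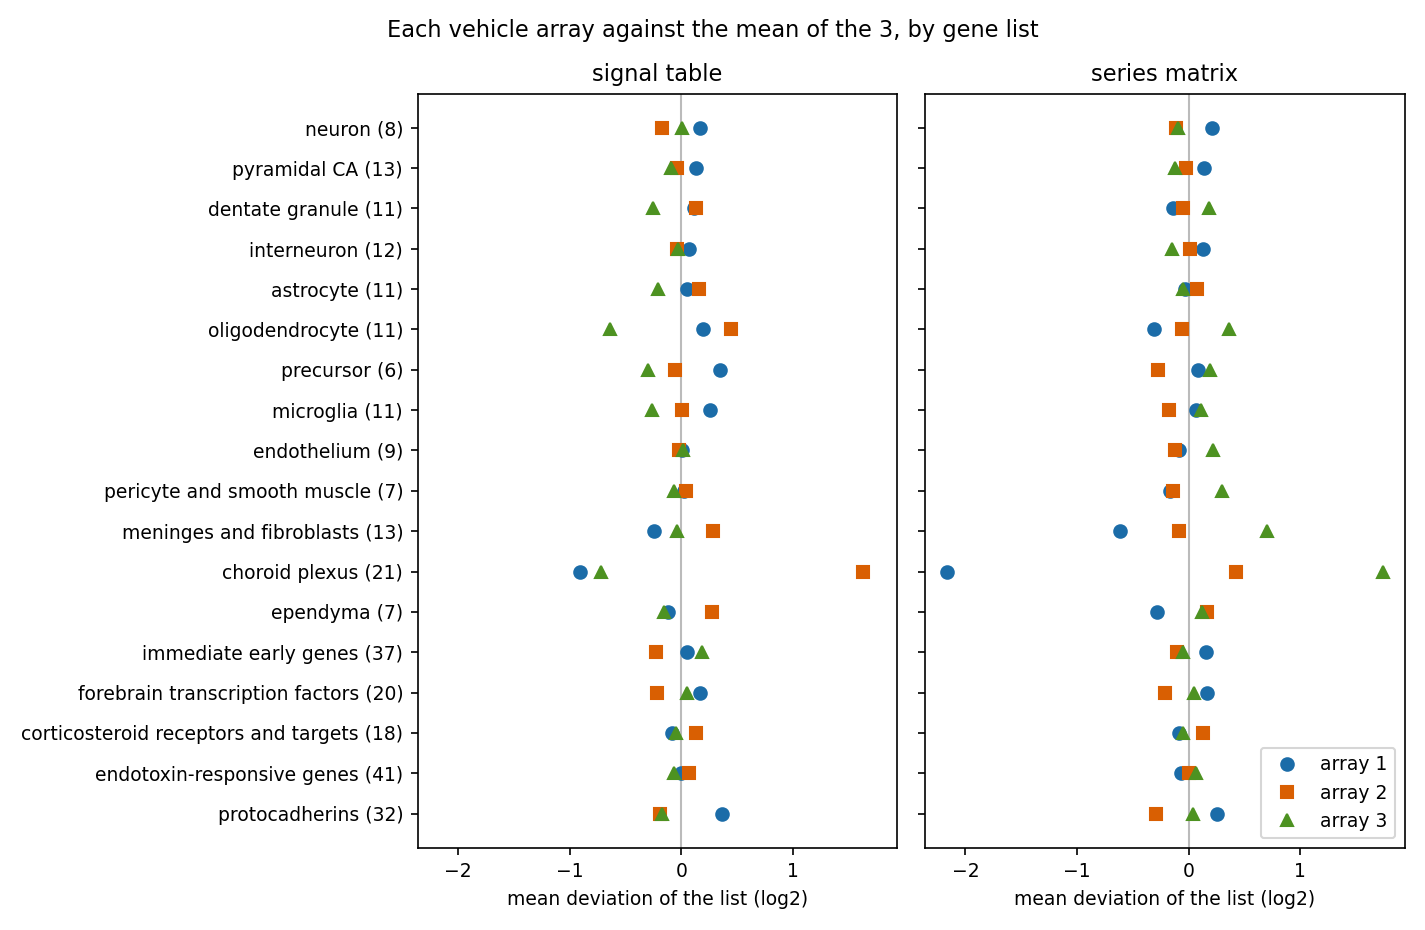
Mean deviation of each gene list (x axis, log2: the array's value minus the mean of the 3 arrays, averaged over the clusters counted in brackets) for arrays 1, 2 and 3 in the signal table (left) and the series matrix (right). Choroid plexus markers spread most, from -0.91 to 1.63 on the left and from -2.17 to 1.74 on the right. The triangle of array 3 changes sides between panels for choroid plexus and oligodendrocyte markers, and for some other lists, such as granule cells.

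Forebrain transcription factors were bright and also varied. Of 20 clusters 11 had a range over 1, against 9.98% of all, and 6 in the series matrix, against 8.19%. Cux2, a homeobox factor of upper cortical layers and of some interneurons, read 8.99, 10.17 and 12.20, but 8.75 for array 3 in the series matrix. Etv1, a factor of deep cortical and CA neurons, read 12.18, 10.84 and 10.50, with 11.95 for array 3 in the series matrix, and Egr1 read 13.03, 12.44 and 14.05. Mef2c, a factor of excitatory neurons, read 13.01, 12.61 and 14.17, and Lhx2 12.08, 10.81 and 11.61. Lhx2 was lowest in array 2 and highest in array 1 in both tables, whereas the excess of array 3 in Cux2, Egr1 and Mef2c was found in the signal table alone. Array 3 of the other table read 12.15 for Egr1 and 12.40 for Mef2c, the lowest of the 3 arrays for both.

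Immediate early genes differed in order from gene to gene. Of 37 clusters, 5 stood in the top decile, 6 lay at or below the bound and 11 had a range over 1. Over all clusters the shares were 10.0%, 41.6% and 9.98%. Nr4a3, an orphan nuclear receptor, led with 14.52, 13.57 and 13.20, followed by Homer1, the postsynaptic scaffold whose short form is induced by activity, with 13.03, 13.37 and 14.30, and Rheb with 13.51, 13.37 and 13.28. Klf4 was the lowest at a mean of 4.42. The Dusp1 and Btg2 values were given above. Npas4, a factor induced by neuronal calcium, read 6.75, 4.53 and 5.50, and its mean lay below the bound. Arc read 9.18, 8.38 and 8.80, and Fos 5.92, 6.32 and 5.64, both with ranges under 1. Nptx2, a secreted pentraxin that clusters AMPA receptors, read 6.87, 7.78 and 9.36, but 7.91 for array 3 in the series matrix, where array 2 was the highest. Array 3 of that table also read 13.18 for Homer1 and 14.39 for Nr4a3, and the ranges of both there were under 1. Array 2 was the lowest in 20 of the 37, against 29.0% of all clusters, and the deviations were 0.05, -0.23 and 0.18. In the series matrix array 2 was the lowest in 15, against 35.7% of all, and array 3 deviated by -0.05. Not all of these genes moved together, and Homer1, Jund and Nptx2 were lowest in array 1 while Dusp1, Npas4 and Nr4a2 were highest there.

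**Figure D4:**
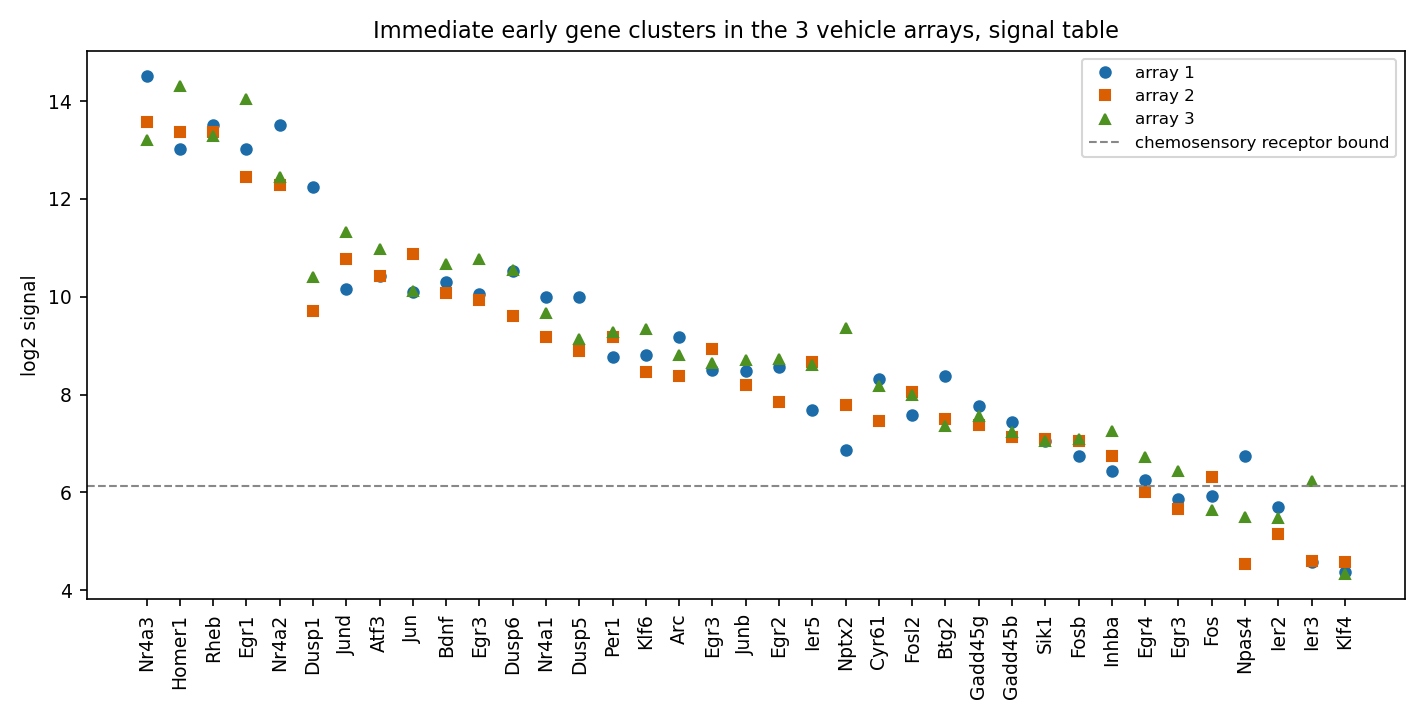
Log2 signal (y axis) of the 37 immediate early gene clusters on arrays 1, 2 and 3 of the signal table, ordered by mean, with the receptor bound of 6.13 dashed. The widest gaps are those of Dusp1, Nptx2 and Npas4, of which that of Nptx2 is 1.17 in the series matrix, and most other clusters differ by less than 1 unit.

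Corticosteroid receptors and their targets had a range over 1 in 9 of 18 clusters, against 9.98% of all. In the series matrix 4 of 18 did, against 8.19% of all. Nr3c2, the mineralocorticoid receptor that hippocampal neurons express densely, read 14.15, 13.58 and 12.53, with 14.26 for array 3 in the series matrix, and Nr3c1, the glucocorticoid receptor, read 9.57, 9.25 and 9.60. The targets did not move as one. Sgk1, a kinase, read 10.52, 11.95 and 10.57 and Tsc22d3, the glucocorticoid-induced leucine zipper, 10.63, 11.67 and 11.50, both lowest in array 1 of the signal table. Tsc22d3 of array 3 was 10.58 in the series matrix. Mt1 and Mt2, counted in this list also, were highest in array 1. Fkbp5, a chaperone that dampens the receptor, read 12.73, 13.56 and 13.04. Sgk1 is also made by oligodendrocytes and choroid plexus. The lowest of the list was Hsd11b2 with 5.06, 5.29 and 6.02.

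Protocadherins, neuronal adhesion proteins whose clustered genes are chosen at random cell by cell, were highest in array 1 in 26 of 32 clusters, against 33.0% of all, and in 25 in the series matrix, against 31.0%. Of the 20 clusters of the beta group, array 1 was the highest in 19 and 8 had a range over 1, against 5 in the series matrix, with 4 in both. Of the 12 other clusters, 2 had a range over 1 in the signal table. Over all clusters the share with a range over 1 was 9.98%, and 8.19% in the series matrix. Pcdhb17 read 8.60, 7.35 and 6.85 and Pcdhb16 8.09, 7.68 and 6.38. The range of Pcdhb16 was 0.36 in the series matrix and that of Pcdhb17 was 1.21. These intronless genes are near-copies of each other, so probes can be shared between them and the beta clusters do not count as separate observations. Pcdh1 led the family with 13.71, 13.08 and 12.82, followed by Pcdh7 (mean 11.02) and Pcdh17 (10.94), and Pcdhb1 was the lowest at 3.74.

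Beyond the lists, single genes had wide ranges. Mid1, a ubiquitin ligase of microtubules whose gene crosses the edge of the pseudoautosomal region in mice, was read by 3 clusters. They read 13.46, 9.19 and 9.10 in 1 case and 14.63, 9.70 and 9.81 in the 2 others, which had identical values and are not separate readings. Array 1 stood more than 4 units above both others in each, in both tables. Egfem1, a gene with EGF-like and EMI domains, read 10.09, 5.27 and 11.13, with array 2 below the receptor bound, and 10.15, 5.16 and 10.52 in the series matrix. Baiap2l1, an adaptor between membranes and actin, read 10.73, 8.54 and 5.47, with array 3 below the bound, and 10.92, 8.51 and 5.90. In both tables array 1 was the highest by far for Mid1, array 2 the lowest for Egfem1 and array 3 the lowest for Baiap2l1, so these differences do not depend on which column is array 3. ICR mice are outbred, and genotypes of the mice are not known here.

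Nt5dc3, a member of the nucleotidase domain family, read 12.27, 13.54 and 9.29, but 13.41 for array 3 in the series matrix. Lonrf2, a ring finger protein, read 12.20, 9.43 and 9.01, Purb, a nucleic acid binding protein, 13.79, 11.29 and 10.78, and Kbtbd11 12.23, 9.41 and 9.41. Array 1 was about 2 to 3 units above the others in these genes of the signal table. Array 3 of the series matrix instead stood with array 1, at 12.17 for Lonrf2, 14.09 for Purb and 12.23 for Kbtbd11. Ndst4, a heparan sulfate sulfotransferase, read 9.84, 8.20 and 6.60, but 9.58 for array 3 in the series matrix. Slc38a6, of an amino acid transporter family, was low in array 1 alone, at 9.39, 11.73 and 11.75, and at 9.44, 11.80 and 11.00 in the series matrix.

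Other genes with ranges over 1 included Htr1a (10.18, 8.95 and 8.15, with 9.12 for array 3 in the series matrix), highest in array 1, and Serpina3n, a protease inhibitor of reactive astrocytes, with 12.45, 11.69 and 10.36. Gfap, the astrocyte filament, read 11.76, 12.29 and 10.94, and P2ry12, a purine receptor of microglia, 11.35, 10.14 and 9.66. For Serpina3n, Gfap and P2ry12 the series matrix put array 3 at 12.54, 12.09 and 11.44, so its low value in these genes was found in the signal table alone. Vip, of a class of interneurons, read 9.13, 9.36 and 10.69, with 8.97 for array 3 in the series matrix. Prkcd and Tcf7l2, markers of thalamus, were highest in array 2 in both tables, at 9.72, 10.92 and 8.95 and at 8.42, 9.57 and 7.73. The thalamic and habenular list did not move as one. Array 2 was the highest in 5 of its 10 clusters and the lowest in 3, against 30.5% and 29.0% of all.

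Some bright genes hardly differed between arrays. Among clusters of the top decile, the 10 with the smallest range had ranges of 0 to 0.03. Besides COX2 and Hspa8 they were Serpine2, a thrombin inhibitor of glia (12.12 on each array), the autophagy receptor Ccpg1 (11.95, 11.95 and 11.96), the sulfotransferase Chst1 (13.88, 13.90 and 13.88) and the dynein light chain Dynlrb1 (13.11, 13.13 and 13.13). They also held Lrrtm4, a synaptic adhesion protein of granule cells (15.23, 15.22 and 15.24), Elp2 of the elongator complex (12.42, 12.41 and 12.40), Slc1a2 (17.72, 17.75 and 17.72) and the G protein subunit Gnb1 (16.63, 16.66 and 16.65). With 10 taken from 2222 clusters, some agreement this close is set by the choice. COX2 and Hspa8 also lay near the highest signal of each array, and whether a ceiling holds them there was not tested. Of common reference genes, Ppia had a range of 0.12, Hprt 0.18, Pgk1 0.26, Tbp 0.30, Actb 0.31 and Gapdh 0.57. Families with no cluster over 1 included the 38 proteasome subunits, the 34 kinesins and the 19 Wnt ligands, against 9.98% of all clusters. They are named here for that count, and in the series matrix 1 proteasome subunit and 1 kinesin had a range over 1. Not all were bright, since 14 of the 34 kinesins and 14 of the 19 Wnt ligands lay at or below the bound. The share over 1 was 5.86% below the 20th percentile of mean signal.

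Between both deposited columns of array 3, 772 clusters (3.48%) were more than 1 unit higher in the signal table and 1006 (4.53%) more than 1 unit higher in the series matrix. The largest differences in the second direction were mostly choroid plexus genes, with Ttr (by 7.90), Kl (by 6.21), Kcnj13 (by 5.82), Enpp2 (by 5.34) and Folr1 (by 5.33). Igf2, at 9.44 and 14.27, and Lbp, the lipopolysaccharide binding protein, at 5.37 and 9.90, were also among the 8 largest. Cwc22, a spliceosome protein, read 6.97 for array 3 in the signal table and 13.71 in the series matrix, where arrays 1 and 2 read 6.35 and 7.45. In the first direction stood Cux2 (by 3.45), the actin nucleator Cobl (by 3.01), Atp6ap1l (by 2.87), the syntaxin Stx1a (by 2.86), Garnl3 (by 2.74), Rgs6 (by 2.72), Slc37a1 (by 2.69) and the potassium channel partner Dpp10 (by 2.65). Cckbr, the cholecystokinin receptor of brain, read 10.25 in the signal table and 7.98 in the matrix. These genes were chosen by that difference. The marker lists of choroid plexus and of oligodendrocytes were described above as higher in the series matrix column, and other lists moved too. From the signal table to the series matrix, the mean deviation of array 3 went from -0.04 to 0.70 for meninges and fibroblasts. It went from -0.25 to 0.18 for granule cells and from 0.17 to -0.24 for subiculum and deep cortex. No value here shows which column was the third vehicle mouse.

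**Figure D5:**
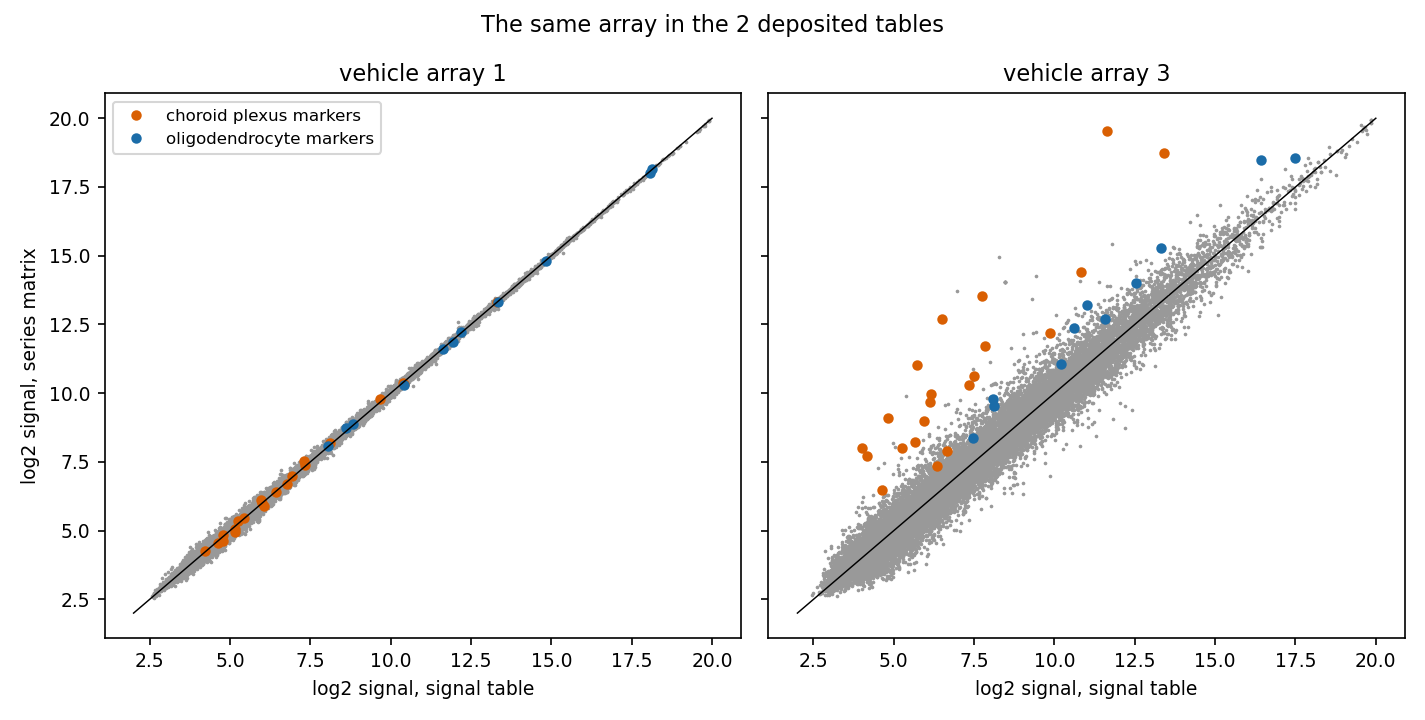
Log2 signal of each cluster in the signal table (x axis) and the series matrix (y axis) for array 1 (left) and array 3 (right), with the line of equality, choroid plexus markers in orange and oligodendrocyte markers in blue. Array 1 follows the line (r = 0.999), while array 3 scatters around it (r = 0.981) with all 21 choroid plexus markers above it.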

How the data were processed

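Hippocampal total RNA at 100 ng per microlitre was labelled and hybridized to 1 array per sample, per the labels' protocols. No genome build for the clusters is named in the labels or file headers. The deposited signal table and series matrix hold log2 signals that the authors normalized by signal space transformation robust multi-chip analysis in Transcriptome Analysis Console 4.0.2, per the series' design text, which names human cells and the human array, whereas the cluster IDs are those of the mouse array. Scanner values and detection calls were not used here. Values were used as deposited, with no filter, and the number of arrays, 3, limits the precision.

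Of 22206 clusters, 21367 carried 1 symbol, 836 several and 3 none. Clusters with several symbols were counted and not named, apart from the globins, and 27 symbols turned into dates were rebuilt from the gene descriptions. Of 793 listed symbols 761 were found. With 1 group of 3 arrays no test was run. Percentiles, ranges and deviations were computed in Python 3.11 with pandas and numpy, and checked on simulated data. The members and the 61 gene lists and 43 families were chosen with earlier results of these data known. Named genes are the 20 highest and 20 widest clusters, the 6 furthest above and below per array, the 10 steadiest of the top decile, the 8 most different per direction between tables for array 3, and in each list the 3 highest, the lowest and up to 6 with a range over 1, with others named as examples after their values were seen. Predicted genes, chemosensory receptors and histones were counted only, and some genes that the rule names are not reported here. Alternatives were the series matrix, other scalings, other bounds and thresholds, and leaving out each array.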

Additional observations from a re-analysis of the deposited data

How the results depend on the processing

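The count of 2217 clusters with a range over 1 log2 unit became 8260 at a range of 1.5 times and 92 at 4 times, and 1032 for arrays 1 and 2 of the series matrix, an alternative chosen after seeing the data. Leaving out an array gave 674 to 1403, since 2 values have a smaller range than 3. The series matrix (1819, or 1827 with each column centred), quantile normalization (2173), centring (2208), clusters above the 40th percentile (1542) and clusters with 1 symbol (2098) stayed within 1.5 times. The receptor bound took in 14266 clusters in place of 9246 when keratin-associated, defensin and testis genes set it, and 8031 to 11425 at the 90th and 99th percentile of the receptors. Choroid plexus markers with a range over 1 (19) numbered 5 to 18 with 1 array left out, the 5 without array 2. Oligodendrocyte markers (7) numbered 2 in the series matrix, centred or not, 0 for its arrays 1 and 2, 0 at a range of 4 times, and 0 to 6 with 1 array left out, the 0 without array 3.

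Of the 21 mean deviations of 7 lists, these changed sign in the series matrix. For array 3 they were choroid plexus (1.742 in place of -0.721), oligodendrocytes (0.365 in place of -0.638), granule cells (0.185 in place of -0.249), meninges (0.7 in place of -0.043), protocadherins (0.039 in place of -0.175) and immediate early genes (-0.05 in place of 0.184). For array 2 they were oligodendrocytes (-0.057 in place of 0.443), meninges (-0.084 in place of 0.286) and granule cells (-0.049 in place of 0.134), and for array 1 oligodendrocytes (-0.308 in place of 0.195) and granule cells (-0.136 in place of 0.115). With medians over members, array 3 changed sign for forebrain transcription factors (-0.195 in place of 0.052) and meninges (0.157 in place of -0.043), and array 1 for immediate early genes (-0.043 in place of 0.047). The cause was not tested. Quantile normalization and centring changed the sign of none of the 21. Median percentiles moved by over 5 points in 2 of 102 lists with the series matrix, most for choroid plexus, which rose by 13.31. Leaving out array 2 or array 3 moved 1 list by over 5 points, choroid plexus, and leaving out array 1 moved 0. Among clusters above the 40th percentile only, 70 of 100 moved by over 5 points, since the dim members then drop out.

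No paired analysis was possible because 1 group was described and no result came from a test. Background correction and a slide block were not run, for want of scanner values and slide names. Signals near the receptor bound cannot separate silent from weakly read genes, and 3 arrays of which 1 differs between tables leave the spread between mice poorly known.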

Other observations

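Calcium-binding and lipid-carrying genes were split by isoform as well. Hpca, the calcium sensor hippocalcin, read 17.48, 17.01 and 16.91 in arrays 1, 2 and 3, and Vsnl1, its relative, 16.85, 16.41 and 16.75, while S100a6 read 5.41, 6.79 and 6.67. Of 9 fatty acid binding proteins, Fabp3 led with 13.45, 13.25 and 13.84, and the astrocyte and progenitor form Fabp7 read 10.28, 11.54 and 10.25. The gut form Fabp1 was the lowest with 2.99, 4.07 and 3.58, and 6 of the 9 lay at or below the receptor bound, against 41.6% of all clusters. Clu, the carrier clusterin, read 16.93, 16.57 and 16.31, against 3.24, 3.61 and 3.13 for Apom of liver and kidney.

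Ion channels also differed within families. Kcnq3, a potassium channel of neurons, read 12.46, 12.13 and 11.71, while Kcnq1 of heart read 3.52, 3.58 and 3.08. Scn8a led the sodium channels with 11.71, 11.89 and 12.20, and Scn10a and Scn11a, of sensory neurons, had means of 3.56 and 3.69. Kcnj10, the glial inward rectifier, read 13.38, 11.81 and 11.15, and was thus highest in array 1, with 13.00 for array 3 in the series matrix. Sema5a, a guidance protein, read 11.06, 11.29 and 9.05, and Fgf1 8.96, 9.28 and 7.26, both lowest in array 3 of the signal table. In the series matrix array 3 read 11.66 for Sema5a, the highest there, and 6.27 for Fgf1, again the lowest.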
